A study of Mus musculus with 9 samples.

Results

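The genes described here encode 9 enzymes that make or break down sphingomyelin, break down ceramide, or add glucose to ceramide and remove it again: Sgms1, Sgms2, Smpd1, Smpd2, Smpd4, Asah1, Acer3, Gba2 and Ugcg. They were found by symbol among the 23317 rows of the deposited count table, and each had 1 row. They were measured by low-input RNA sequencing of polyadenylated RNA from cells labelled as haematopoietic stem cells (HSCs), the rare marrow cells that sustain blood formation for life. All mice were wild type. The 3 groups, with 3 libraries of 1500 sorted cells each, were young HSC, old HSC and old HSC treated with ABC294640, which the submitters describe as the inhibitor of sphingosine kinase 2 (SphK2) used in the study. The protocol gives ages of 2 to 4 or 20 to 24 months, which by their wording belong to the young and to both old groups. How ABC294640 was given, at which dose and for how long, and which surface markers defined the sort, is not given in the sources used. Whether replicate libraries stem from different mice is not stated either, so the spread behind each p-value may be technical only.

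Ceramide is the hub of sphingolipid metabolism. Sphingomyelin synthases join a phosphocholine head group to it to make sphingomyelin, an abundant lipid of the plasma membrane, and sphingomyelinases take that head group off again. Ceramidases cut ceramide into a fatty acid and sphingosine, the substrate of the sphingosine kinases, and glucosylceramide synthase commits ceramide to the glycosphingolipids. By its title, the study concerns sphingosine metabolism and ferroptosis in aged HSCs.

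Promoters are shown for both sphingomyelin synthases, whose transcripts moved in opposite directions with age, and for the lysosomal sphingomyelinase Smpd1, which rose. Each sequence is the 250 bases before a RefSeq start site (build GRCm38.p6), read 5′ to 3′ on the gene's strand, at the RefSeq start nearest to the 5′ end of the gene in the annotation. Capitals mark matches on either strand to GGGCGG, known as the GC box, or to CCAAT. None of these 3 windows overlapped an annotated exon. The Sgms1 start lay 1202 bases inside the annotated gene, and the Sgms2 start 32 bases before it. The bases just after the Sgms2 start were not found as 1 run in any annotated transcript of that gene. They lie at chr19:32388513-32388762 (minus strand, Sgms1), chr3:131491444-131491693 (minus strand, Sgms2) and chr7:105554110-105554359 (plus strand, Smpd1).
Sgms1: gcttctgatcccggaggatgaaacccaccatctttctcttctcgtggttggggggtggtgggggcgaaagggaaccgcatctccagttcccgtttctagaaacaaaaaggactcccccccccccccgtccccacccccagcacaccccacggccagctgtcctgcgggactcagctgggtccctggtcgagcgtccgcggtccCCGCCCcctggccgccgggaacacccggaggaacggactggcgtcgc
Sgms2: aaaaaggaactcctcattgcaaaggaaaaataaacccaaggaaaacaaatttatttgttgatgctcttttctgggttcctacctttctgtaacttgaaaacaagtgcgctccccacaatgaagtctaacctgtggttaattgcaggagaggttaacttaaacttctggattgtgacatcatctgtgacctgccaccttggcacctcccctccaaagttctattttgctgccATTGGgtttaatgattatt
Smpd1: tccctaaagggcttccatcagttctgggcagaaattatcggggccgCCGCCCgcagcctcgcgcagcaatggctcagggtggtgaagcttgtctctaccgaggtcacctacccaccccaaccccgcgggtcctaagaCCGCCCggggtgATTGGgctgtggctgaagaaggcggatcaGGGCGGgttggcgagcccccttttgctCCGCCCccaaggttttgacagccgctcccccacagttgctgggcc
The Smpd1 window held 4 matches to GGGCGG and 1 to CCAAT, the Sgms1 window 1 match to GGGCGG, and the Sgms2 window 1 match to CCAAT. RefSeq lists 6 start sites for Sgms2 and 4 for Sgms1, so the window shown is 1 of several for each, and the count table does not separate transcripts by start site. The windows of other starts differed from those shown. Ordered by distance from the 5′ end of the gene, Sgms2 starts 3 and 4 held 3 and 2 matches to GGGCGG. Sgms1 start 2 held 2 matches to GGGCGG, and its starts 3 and 4 held 0. Over the 17 windows of the 8 members in the RefSeq table, 9 held GGGCGG, 4 held CCAAT and 2 held CACGTG, searched on both strands. Of 32851 windows of the same length over all genes, 32.7% held GGGCGG, 33.8% held CCAAT and 6.02% held CACGTG. A match is a description of the letters and no measure of binding. Asah1 was not in that table.

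Library totals ran from 16663445 to 23254115 counts, and each member had between 178 and 2691 counts per library, so all 9 passed the filter on low counts. Of 10 HSC marker genes, 9 averaged at least 1 CPM (library-scaled count, defined below) over the 9 libraries, with Kit at 116 CPM, Meis1 at 82.8 CPM and Procr at 3.21 CPM, and Fgd5 averaged 0.789 CPM. The 10 HSC markers summed to 394 to 408 CPM in young, 333 to 339 CPM in old and 340 to 348 CPM in treated old HSC, and the mean of Ly6a was 86.7, 49.1 and 48.6 CPM. Replicate libraries differed by a chi-square of 2.23 to 8.36 per degree of freedom, and young replicate 1 stood apart from the other young libraries (8.36 and 7.67, against 2.86 between those). Results without it are given below. All 13 granulocyte and monocyte markers were present, and their summed level was 35724 to 40091 CPM in young, 52835 to 56233 CPM in old and 52622 to 53929 CPM in treated old HSC. Mpo, Elane and Prtn3 made up most of this sum, while the means of Ly6c2 (2723, 1858 and 1874 CPM) and Csf1r (15.8, 9.73 and 10.7 CPM) were highest in young HSC. The 9 erythroid markers summed to 1765 to 1804, 1000 to 1006 and 1103 to 1111 CPM. Car1 and Car2 made up most of this sum. Hbb-bt alone among them had its lowest mean in young HSC (9.51, 14.2 and 12.7 CPM). The 6 megakaryocyte markers summed to 451 to 492, 225 to 253 and 292 to 309 CPM. The 7 B and plasma cell markers used summed to 335 to 379, 672 to 757 and 635 to 661 CPM, with Ms4a1 and Pax5 each below 1 CPM on average. Igkc averaged 165, 533 and 470 CPM in the 3 groups, while Ighm averaged 95.7, 60.6 and 59.4 CPM and Cd79b 65.1, 60.8 and 63.4 CPM. The 8 T and NK cell markers summed to 1333 to 1487, 1736 to 1893 and 1901 to 2068 CPM, nearly all of it Nkg7, with Cd3e at 0.046 CPM. Apart from Nkg7, every marker of this list had a lower mean in old than in young HSC. Cd3d averaged 5.53, 4.37 and 4.42 CPM and Cd8a 5.08, 2.48 and 2.16 CPM in the 3 groups. The 6 macrophage markers summed to 106 to 121, 99.7 to 105 and 97.5 to 104 CPM. Among them Vcam1 averaged 34.7, 47.0 and 42.8 CPM, while the means of the others were highest in young HSC. The 6 markers of stroma and endothelium summed to 39.1 to 45.5, 30 to 36.7 and 34 to 35.3 CPM. No marker was at 0 in all libraries. The part of these other cell types in the results below was not tested. In bulk samples, fewer cells that express a gene and less RNA of it per cell cannot be told apart. The Y-linked gene Ddx3y stood at 0.936 ± 0.258 CPM in young, 38.9 ± 5.08 in old and 38.3 ± 5.46 in treated old HSC (SD, n = 3), so in both comparisons with young HSC, age and apparent donor sex cannot be told apart. All 9 members lie on autosomes and are annotated as protein coding. Gene positions below are in GRCm38 with the GENCODE annotation.

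Levels are in CPM, the usual count scaled to library size, after TMM scaling. Differences are log2 fold changes with their standard error (SE). Each adjusted p comes from the quasi-likelihood test of edgeR, corrected by Benjamini-Hochberg over 14227 tested genes, and 0.05 was the threshold. Between old and young HSC, 4 of the 9 members rose (Sgms2, Asah1, Gba2 and Smpd1) and 2 fell (Ugcg and Sgms1), while Smpd2, Smpd4 and Acer3 did not pass. Of all genes tested, 39.4% passed in that comparison, 19.6% upward and 19.8% downward. The median log2 fold change was 0.16 over the 9 members and -0.03 over all genes tested, and the median size of the change regardless of sign was 0.29 and 0.23. At an unadjusted p under 0.05, 7 of the 9 members stood out, against 47.8% of all genes. Old and young libraries did not overlap for 6 of the 9 members, against 48.4% of all genes. Without young replicate 1, the lowest library for Sgms2 and Asah1, all 6 calls held, with log2 fold changes of 1.09 for Sgms2, 0.37 for Asah1, 0.31 for Smpd1, 0.32 for Gba2, -0.36 for Ugcg and -0.21 for Sgms1, and Smpd4 passed as well.

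**Figure D1:**
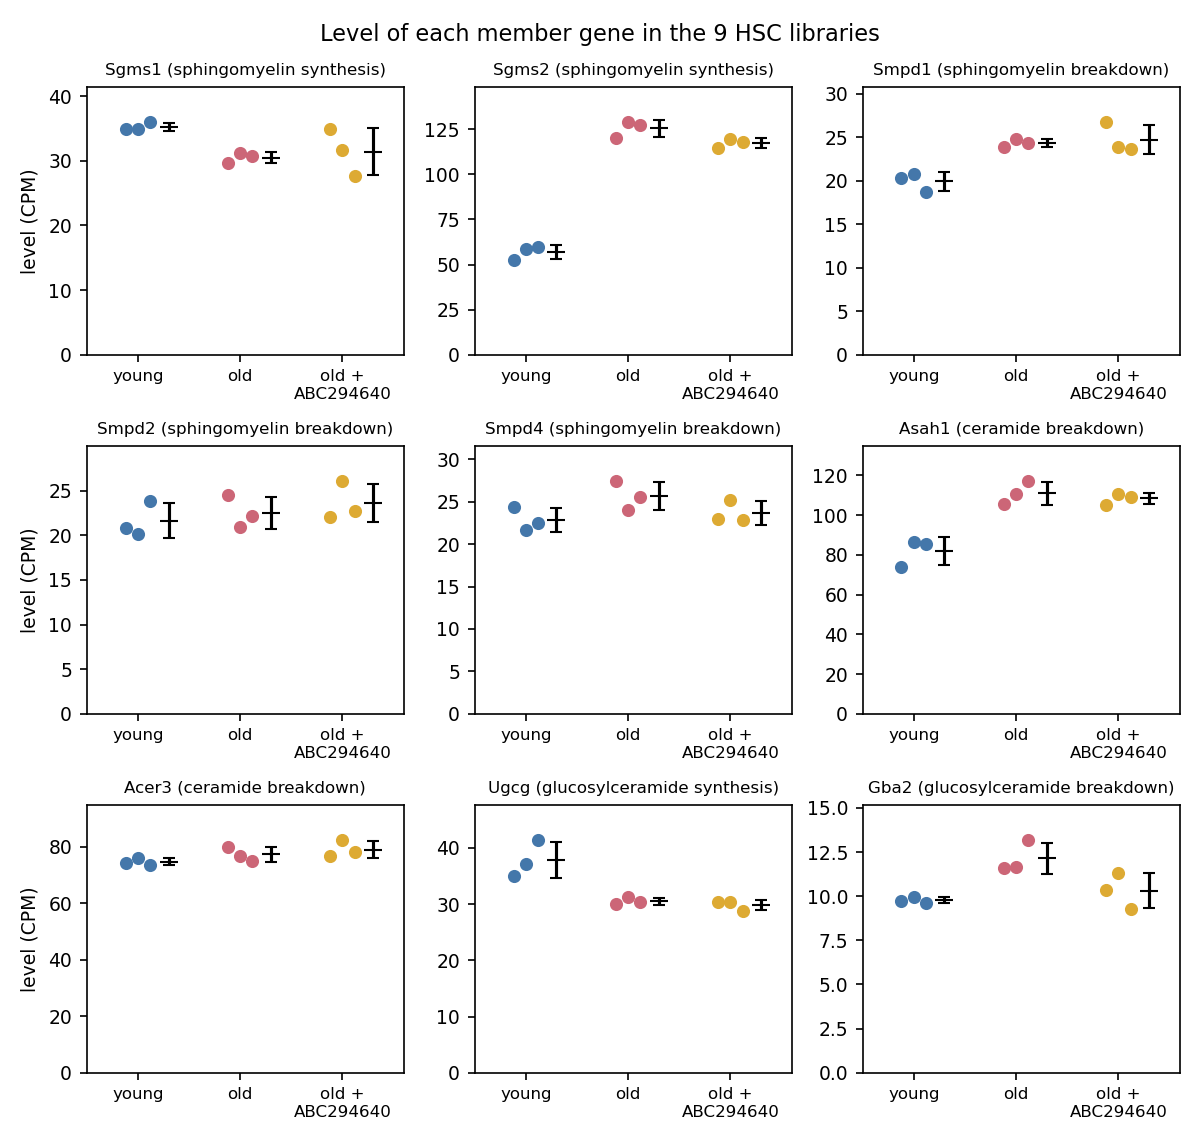
Level of each of the 9 genes in CPM on a linear axis from 0, with 1 point per library and, beside the points, the mean with SD (n = 3) for young, old and ABC294640-treated old HSC. Old and treated old HSC sit above young HSC for Sgms2, Smpd1 and Asah1 and below it for Ugcg, and the range of the treated libraries overlaps that of the untreated old ones for all genes except Sgms2 and Gba2.

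Both sphingomyelin synthases were transcribed in every library, and they moved apart with age. Sgms2 (ENSMUSG00000050931, chr3:131318985-131491411, minus strand) encodes a synthase of the plasma membrane and Golgi. It stood at 52.7, 58.7 and 59.8 CPM in the young, 120, 129 and 127 CPM in the old and 114, 120 and 118 CPM in the treated old libraries. Every old and treated library lay far above every young one. It rose 2.20-fold from young to old HSC (log2 fold change 1.14, SE 0.055, adjusted p = 1.21e-12) and was 2.06-fold higher in treated old than in young HSC (1.04, SE 0.055, adjusted p = 6.01e-12). Among the 9 genes this was the largest difference in both comparisons.

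Sgms1 (ENSMUSG00000040451, chr19:32122727-32389714, minus strand) encodes the synthase of the Golgi that makes most sphingomyelin in many cells. It was at 34.9, 34.9 and 36 CPM in young and 29.6, 31.1 and 30.7 CPM in old HSC. The treated libraries, at 34.9, 31.6 and 27.6 CPM, spanned the range from below the old to within the young values. Sgms1 fell from young to old HSC with a log2 fold change of -0.21 (SE 0.075, adjusted p = 0.0337). That call is close to the threshold. It was lost with DESeq2 (adjusted p = 0.129), without a filter (0.0983), and when any 1 of 6 libraries was left out, namely each old replicate, young replicates 2 and 3 and treated replicate 2 (0.0650 to 0.116). Over all 16 alternative settings its log2 fold change stayed between -0.25 and -0.16, with adjusted p from 0.0119 to 0.129. Against treated old HSC the difference from young was -0.17 (SE 0.075) and did not pass (adjusted p = 0.0831). It passed without treated replicate 1, at -0.24 (adjusted p = 0.0295), and with a stricter filter, at -0.23 (adjusted p = 0.0236).

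The balance between the synthase transcripts can be read within each library as the ratio of their levels per kilobase of exon. It is no measure of the enzymes. The ratio of Sgms2 to Sgms1 was 2.56, 2.85 and 2.82 in young, 6.87 to 7.02 in old and 5.55, 6.41 and 7.23 in treated old libraries. All 6 libraries of old mice were above the young ones, and the treated libraries varied the most. The size of the ratio, though not its order between groups, depends on the length used. With the longest annotated transcript in place of all exons, the level of Sgms1 in young HSC was 8.73 CPM per kilobase in place of 3.34, beside 9.84 for Sgms2.

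Of the sphingomyelinases, Smpd1 (ENSMUSG00000037049, chr7:105554360-105558389, plus strand) rose with age. It encodes acid sphingomyelinase, which works in lysosomes and is lacking in Niemann-Pick disease types A and B. Its level was 20.3, 20.8 and 18.6 CPM in young, 23.9, 24.8 and 24.3 CPM in old and 26.7, 23.8 and 23.6 CPM in treated old HSC. Neither set of old libraries overlapped the young one. The log2 fold change was 0.29 (SE 0.077, adjusted p = 0.00547) for old and 0.31 (SE 0.077, adjusted p = 0.00336) for treated old against young HSC.

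The neutral sphingomyelinases Smpd2 (ENSMUSG00000019822, chr10:41485642-41490369, minus strand) and Smpd4 (ENSMUSG00000005899, chr16:17619354-17644828, plus strand), which work outside lysosomes, did not pass in any comparison. Smpd2 ran from 20.2 to 23.9 CPM in young, 21 to 24.5 CPM in old and 22.1 to 26.1 CPM in treated old HSC, so the groups overlapped. Its difference between old and young HSC was 0.06, with a 95% confidence interval from -0.13 to 0.24. Smpd4 ran from 21.7 to 24.3, 24.1 to 27.4 and 22.9 to 25.3 CPM, with a difference of 0.16 (SE 0.078, adjusted p = 0.103) between old and young HSC. Smpd4 passed when young replicate 1 (0.22, adjusted p = 0.0429) or old replicate 2 (0.23, adjusted p = 0.0489) was left out. Exons of Smpd2 overlap those of Mical1 on the other strand over 20.3% of their length, and no source states that strand was used in counting, so reads there cannot be assigned to 1 gene.

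Of the 2 ceramidase genes, Asah1 rose with age and Acer3 did not pass. Asah1 (ENSMUSG00000031591, chr8:41340197-41374773, minus strand) encodes acid ceramidase, the lysosomal enzyme that is deficient in Farber disease. It stood at 74.1, 86.6 and 85.5 CPM in young, 105, 110 and 117 CPM in old and 105, 111 and 109 CPM in treated old HSC. The young libraries were the lowest of the 9, with no overlap. Asah1 rose 1.35-fold with age (log2 fold change 0.44, SE 0.059, adjusted p = 6.79e-06) and was 1.32-fold higher in treated old than in young HSC (0.40, SE 0.059, adjusted p = 2.11e-05). Acer3 (ENSMUSG00000030760, chr7:98206389-98321208, minus strand) encodes an alkaline ceramidase of the endoplasmic reticulum and Golgi. It was at 74.3, 76 and 73.6 CPM in young, 80, 76.8 and 74.9 CPM in old and 76.5, 82.2 and 78 CPM in treated old HSC. Its difference between old and young HSC was 0.05 (95% confidence interval -0.06 to 0.16, adjusted p = 0.453). The difference in response between the 2 genes was not tested. Per kilobase of exon, the ratio of Asah1 to Acer3 was 4.51 to 5.26 in young, 5.96 to 7.06 in old and 6.10 to 6.33 in treated old libraries.

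The pair of glucosylceramide genes moved against each other. Ugcg (ENSMUSG00000028381, chr4:59189257-59222833, plus strand), glucosylceramide synthase, was at 35.1, 37.1 and 41.3 CPM in young, 29.9, 31.2 and 30.3 CPM in old and 30.4, 30.3 and 28.8 CPM in treated old HSC. All old and treated libraries lay below all young ones, whose own spread was the widest. Ugcg fell by 0.31 on the log2 scale with age (SE 0.070, adjusted p = 0.00155) and was lower by the same test in treated old than in young HSC (log2 fold change -0.34, SE 0.070, adjusted p = 0.000691).

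Gba2 (ENSMUSG00000028467, chr4:43566928-43578873, minus strand), which removes the glucose again outside the lysosome, had the lowest level of the 9 genes. It was at 9.70, 9.96 and 9.62 CPM in young, 11.6, 11.7 and 13.2 CPM in old and 10.3, 11.3 and 9.30 CPM in treated old HSC. It rose with age by 0.31 (SE 0.10, adjusted p = 0.0215), a call that was lost without old replicate 3 (0.27, adjusted p = 0.0755), the highest library. Over the 16 alternative settings its adjusted p ran from 0.0101 to 0.0755. Exons of Gba2 overlap those of Creb3 and Rgp1 on the other strand over 6.52% of their length. The ratio of Ugcg to Gba2 per kilobase of exon was 3.11, 3.21 and 3.69 in young, 2.22, 2.30 and 1.98 in old and 2.53, 2.30 and 2.66 in treated old libraries.

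The inhibitor comparison asks what differs between treated and untreated old HSC. By edgeR, 0 of the 9 members passed in either direction, and with DESeq2 0 of the 8 members that had an adjusted p passed, since it gave none for Gba2. Of all genes tested, 1.19% passed, 0.766% upward and 0.429% downward. At an unadjusted p under 0.05, 1 member stood out, Gba2, and 8.83% of all genes did. Gba2 was at 12.1 ± 0.883 CPM in old and 10.3 ± 1.02 CPM in treated old HSC (SD, n = 3), a log2 fold change of -0.24 (95% confidence interval -0.46 to -0.02, adjusted p = 0.513). Its treated libraries all lay below its old ones, as did those of Sgms2, by a margin of less than 1 CPM (-0.10, 95% confidence interval -0.21 to 0.01, adjusted p = 0.657). Treated and untreated libraries did not overlap for these 2 of the 9 members, against 15.5% of all genes. For the other 7 members the difference lay between -0.12 (Smpd4) and 0.07 (Smpd2). All 9 confidence intervals lay between -0.46 (Gba2) and 0.26 (Smpd2). Each interval holds for its own gene only. The spread behind them may be technical only, so they do not exclude larger differences between mice. A p above the threshold does not show that levels were equal.

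**Figure D2:**
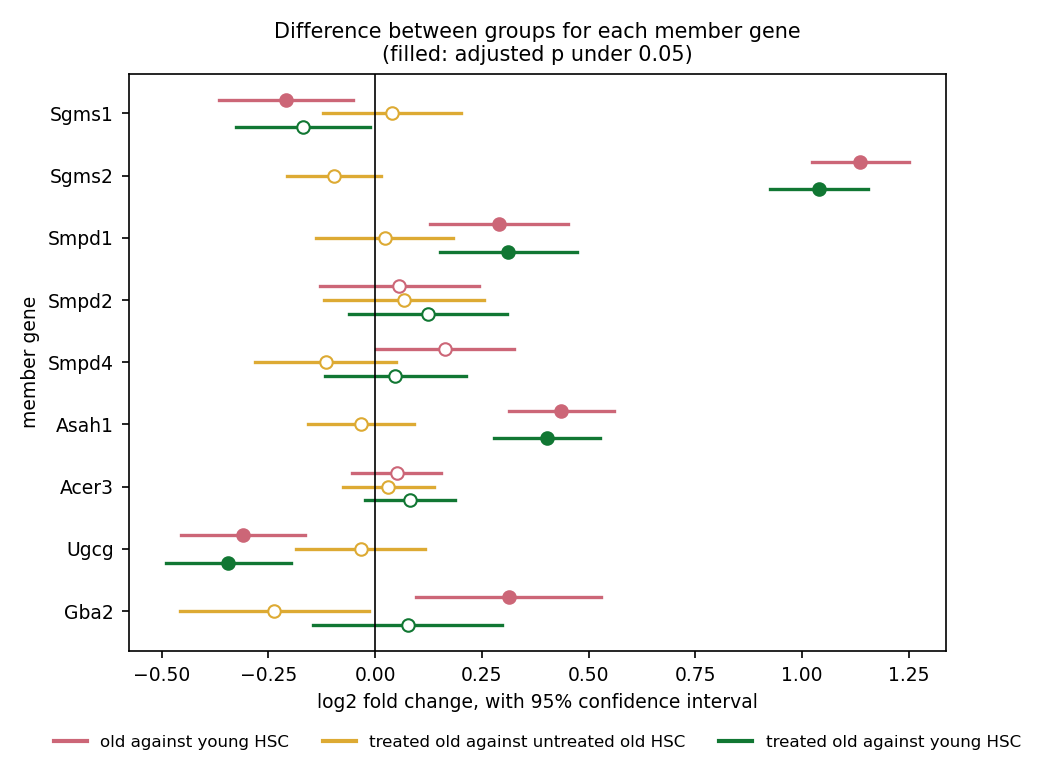
Log2 fold change (horizontal axis) of each of the 9 genes in the 3 comparisons, with its 95% confidence interval as a line, and filled points where the adjusted p is under 0.05. Sgms2 stands apart to the right at 1.14 and 1.04 in the comparisons with young HSC, and all points for treated against untreated old HSC are open and lie between -0.24 and 0.07.

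Between treated old and young HSC, 3 members were higher (Sgms2, Asah1 and Smpd1) and 1 was lower (Ugcg), where 37.6% of all genes passed, 19.1% upward and 18.5% downward. This comparison shares its young libraries with that of old against young HSC, so the 2 are not independent. At an unadjusted p under 0.05, 5 members stood out, against 46.2% of all genes. Libraries did not overlap for 5 of the 9 members, the 4 called ones and Acer3, against 48.4% of all genes. Gba2 differed by 0.08 (95% confidence interval -0.14 to 0.30, adjusted p = 0.603) and Sgms1 is given above. Without young replicate 1 the 4 calls held, with log2 fold changes of 0.99 for Sgms2, 0.34 for Asah1, 0.33 for Smpd1 and -0.40 for Ugcg.

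Per kilobase of exon, which allows a comparison between genes, Asah1 was the most abundant member in all 3 groups, at 24.2 ± 2.05 CPM per kilobase in young, 32.7 ± 1.71 in old and 32.0 ± 0.856 in treated old HSC (SD, n = 3). Sgms2 came next with 9.17 ± 0.615, 20.1 ± 0.755 and 18.8 ± 0.430. In young HSC the order went on with Ugcg (7.26), Smpd1 (5.97), Acer3 (4.87), Smpd2 (4.84), Sgms1 (3.34), Smpd4 (2.53) and Gba2 (2.18), where only Acer3 and Smpd2 overlapped as neighbours. In old HSC Smpd1 (7.29) stood above Ugcg (5.85), the reverse of their order in young HSC, and the libraries of these neighbours did not overlap. Neighbours whose old libraries overlapped were Smpd2 and Acer3, Sgms1 and Smpd4, and Smpd4 and Gba2. In treated old HSC they were Ugcg and Smpd2, Smpd2 and Acer3, and Sgms1 and Smpd4. With the longest transcript as the length, a choice made after seeing the data, Asah1 and Sgms2 kept ranks 1 and 2 in every group. In young HSC, however, Sgms2 (9.84) was then only narrowly above Ugcg (9.43), and Sgms1 moved from rank 7 to rank 4.

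**Figure D3:**
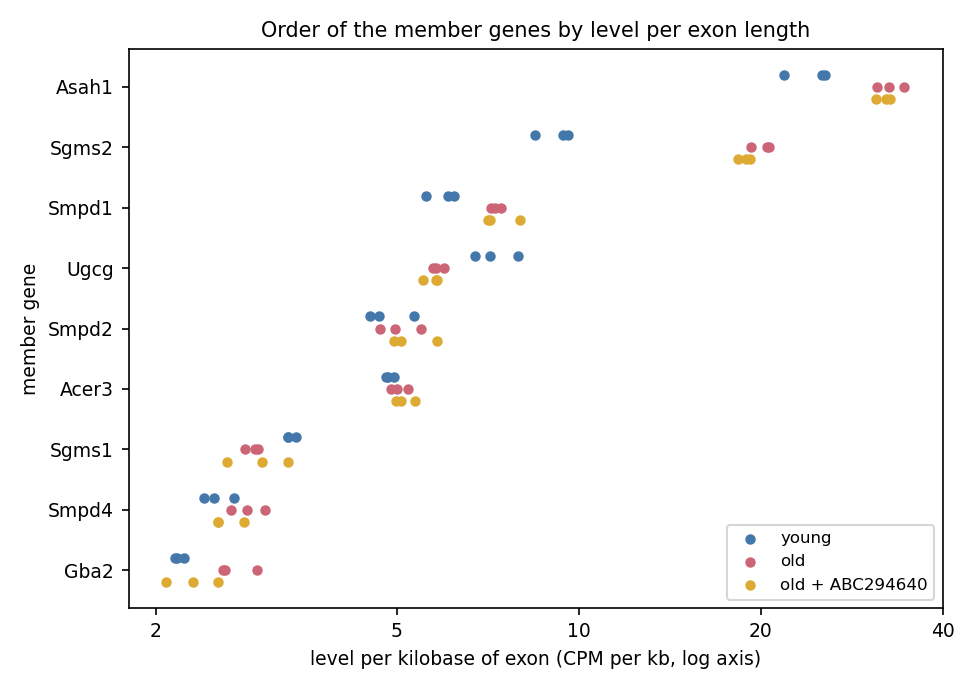
Level per kilobase of exon in CPM per kb on a log axis for the 9 genes, ordered by their mean in old HSC, with 1 point per library and the 3 groups in rows of their own colour. Asah1 and Sgms2 lie above the other genes in all groups, and Smpd1 and Ugcg change places between young and old HSC.

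The genes whose pattern over the 9 libraries was most like that of Sgms2 and Asah1, the called members with the largest differences between old and young HSC, were taken by Pearson's correlation of log2(CPM + 1). For Sgms2 they were Gca (r = 0.998, 43.5 CPM in young and 115 in old HSC), Pafah1b2 (r = 0.998) and Ero1a (r = 0.998), an oxidase of the endoplasmic reticulum. For Asah1 they were Cnot9 (r = 0.986), B4galt6 (r = 0.985) and Mapre1 (r = 0.984). These points share libraries and fall into groups of age, so high values are common: 9.73% of 13648 genes had r above 0.9 with Sgms2 and 6.70% with Asah1.

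The other genes of the pathway were taken from a list of 32, of which 31 were tested and Enpp7 was too low. Between old and young HSC 9 rose, 6 fell and 16 did not pass, with a median log2 fold change of -0.03, where 39.4% of all genes passed, 19.6% upward and 19.8% downward. These shares are the background for the counts of each list as well. Between treated and untreated old HSC 0 of the 31 passed by edgeR, and 0 had an unadjusted p under 0.05. Between treated old and young HSC 8 were higher and 5 were lower, where 37.6% of all genes passed.

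Among the other sphingomyelin genes, 0 of 5 passed by edgeR between old and young HSC, and 1 had an unadjusted p under 0.05. That was Smpdl3b, a sphingomyelinase-like gene, at 0.451 ± 0.0425 CPM in young and 0.858 ± 0.233 CPM in old HSC (adjusted p = 0.0649). Of the other 3 ceramidases Acer2, an alkaline ceramidase of the Golgi, fell from 9.93 ± 2.89 to 4.36 ± 0.458 CPM (log2 fold change -1.19, SE 0.18, adjusted p = 2.01e-05), while Acer1 and Asah2 did not pass. Acer2 fell while Asah1 rose, so the measured ceramidase genes did not share a direction with age.

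Of 5 genes of ceramide transfer and phosphorylation, 3 rose and 1 fell with age. Cerk, ceramide kinase, rose from 19.5 ± 1.45 to 32.6 ± 2.57 CPM (0.74, SE 0.080, adjusted p = 2.76e-07). Cptp, which carries ceramide 1-phosphate, rose from 9.59 ± 0.507 to 14.9 ± 1.74 CPM, and Cert1, which carries ceramide from the endoplasmic reticulum to the Golgi for sphingomyelin synthesis, rose from 13.0 ± 0.947 to 16.1 ± 1.06 CPM. Plekha8, which encodes a glucosylceramide transfer protein, fell from 4.07 ± 0.737 to 2.67 ± 0.278 CPM.

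Of 8 genes of glycosphingolipid synthesis beyond Ugcg, 2 rose and 2 fell. B4galt6, a lactosylceramide synthase, rose from 46.1 ± 5.71 to 80.8 ± 3.64 CPM (0.81, SE 0.071, adjusted p = 1.28e-08). B4galnt1, which builds complex gangliosides, rose from 96.2 ± 3.10 to 146 ± 4.12 CPM (0.60, SE 0.051, adjusted p = 9.92e-09), though its exons overlap those of Slc26a10 on the other strand over 20.7% of their length. The sialyltransferase genes St3gal5, which makes the first ganglioside of the series, and St8sia1 fell, from 9.12 ± 0.764 to 5.06 ± 0.559 CPM and from 3.90 ± 0.458 to 2.00 ± 0.658 CPM.

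Of 10 genes of glycosphingolipid breakdown and its helpers, 4 rose and 2 fell. The sialidase gene Neu1 rose from 18.9 ± 2.12 to 37.3 ± 2.68 CPM (0.98, SE 0.085, adjusted p = 1.25e-08). Gla, which encodes the lysosomal alpha-galactosidase, rose from 42.3 ± 1.07 to 51.9 ± 2.42 CPM. Gla lies on chromosome X, and age and apparent sex cannot be told apart for it. Gm2a, an activator protein of ganglioside breakdown, rose from 297 ± 11.5 to 336 ± 1.80 CPM (0.18, SE 0.044, adjusted p = 0.00308). Psap, the precursor of the saposins that assist several of these enzymes, fell from 101 ± 2.82 to 69.9 ± 0.805 CPM (-0.53, SE 0.048, adjusted p = 2.33e-08).

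**Figure D4:**
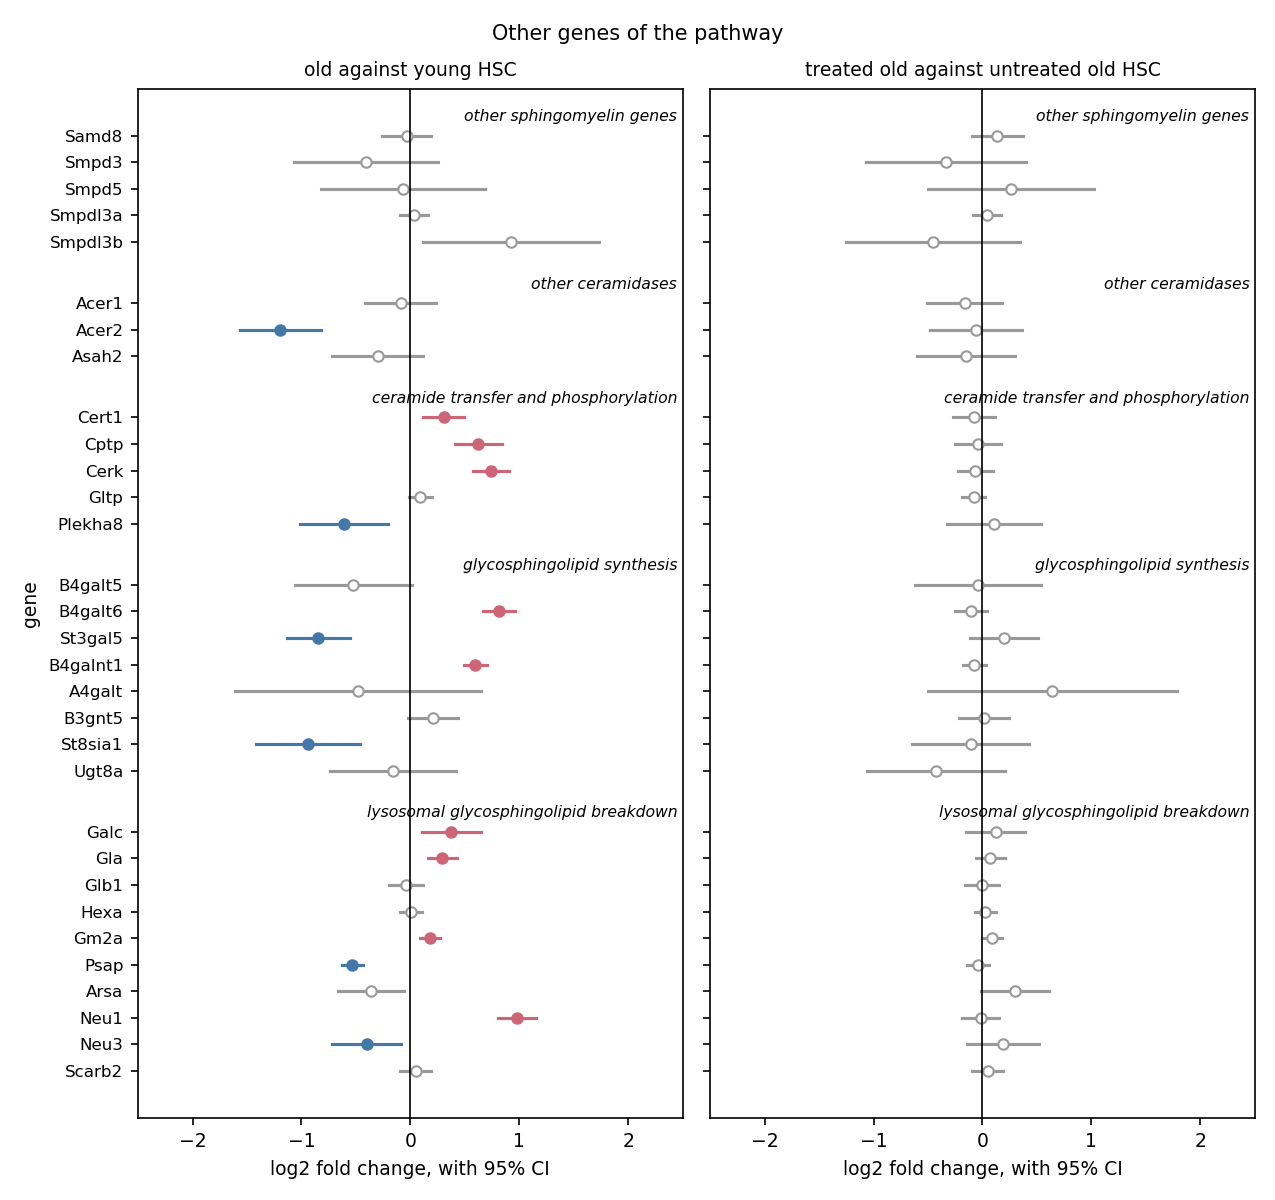
Log2 fold change with its 95% confidence interval for the 31 tested genes of 5 other pathway lists, old against young HSC on the left and treated against untreated old HSC on the right, with filled points for an adjusted p under 0.05, red for higher and blue for lower. On the left 9 points are red and 6 are blue, and on the right all are open.

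The target of the inhibitor was measured too. Sphk2 was at 7.18 ± 1.11 CPM in young, 7.74 ± 1.35 CPM in old and 6.35 ± 0.278 CPM in treated old HSC, and it did not pass in any comparison (adjusted p = 0.595 for age and 0.621 for treatment). Its libraries were at 9.30, 7.08 and 6.86 CPM in old and 6.67, 6.22 and 6.16 CPM in treated old HSC, which did not overlap (log2 fold change -0.28, 95% confidence interval -0.59 to 0.02). Exons of Sphk2 overlap those of Dbp and Rpl18 on the other strand over 21.9% of their length, so reads there cannot be assigned to 1 gene. ABC294640 acts on the enzyme, so the transcript is no check of the labels. Sphk1, which encodes the other sphingosine kinase, fell with age from 15.0 ± 0.891 to 8.45 ± 1.07 CPM (-0.83, SE 0.11, adjusted p = 8.21e-06).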

How the data were processed

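The authors made and deposited estimated counts, also called expected counts, for each gene in each library. Tools named in the submitters' processing notes are edgeR 3.24.3, HTSeq 0.10.0, STAR 2.6.1d and Trim Galore 0.6.2, with build mm10, and their roles are not described. Whole numbers made up 56.0% of the values above 0, and all were rounded for testing. Per the labels' protocols, complementary DNA was amplified with 12 cycles of PCR, so counts are not independent molecules.

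Differences were fitted by edgeR 4.0.16 under R 4.3.3 (TMM, filter by group, quasi-likelihood test, 1 fit of 9 libraries, group as the only term), tested on simulated data first. Alternatives were RLE factors, DESeq2 1.42.0, no filter, at least 5 CPM in 3 libraries, fits of 2 groups, a replicate block, leaving out each library, and thinning to 16663445 counts. Coordinates, exon lengths and overlaps are from GENCODE mouse release 21 (GRCm38), and promoters from RefSeq. Libraries of a group differed by more than sampling noise in a chi-square test of their counts. The members and lists were chosen with earlier results of these data known. All 9 members are named, and of each pathway list at most 4 genes by smallest p. Some genes of the lists are not reported here and are left out of the lists' counts and sums.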

Additional observations from a re-analysis of the deposited data

How the results depend on the processing

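Every called log2 fold change of the 9 members kept its direction under all 16 alternatives. With age, Sgms2, Smpd1, Asah1 and Ugcg were called in all 16, Sgms1 lost its call in 8 and Gba2 in 1, and Smpd4 gained one in 2. The count of members that fell with age was 2, and 1 with DESeq2 and without a filter. Leaving out 1 library gave 1 to 2 members that fell and 3 to 5 that rose with age, 0 to 0 for treatment, and 1 to 2 that were lower in treated old than in young HSC, where the stricter filter gave 2. Signs turned for differences that had not passed: Smpd4 in treated old against young HSC with the stricter filter (-0.010), and, between treated and untreated old HSC, Sgms1 (range with 1 library left out -0.049 to 0.13) and Smpd1 (-0.040 to 0.055) without treated replicate 1, Smpd2 (-0.011 to 0.13) and Acer3 (-0.0039 to 0.057) without treated replicate 2, and Asah1 (-0.067 to 0.0013) without old replicate 3. The cause was not tested. Of all genes, 170 passed for treatment, against 333 without a filter, 260 in a fit of the 2 groups, and 48 to 286 with 1 library left out. With DESeq2, 60.4% of the calls with age were upward, against 49.7%, and 1844 genes fell in place of 2818. The replicate numbers did not pair the samples (correlations of same-numbered deviations from -0.15 to 0.18), and with the replicate block 4 members rose and 2 fell with age, 0 passed for treatment, and 3 were higher and 1 lower in treated old than in young HSC. With 3 libraries per group, differences smaller than the intervals given could not be resolved.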
